A study of Mus musculus with 4 samples.

Results

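The genes described here are 10 components of TGF-beta and BMP signalling: the ligands Tgfb1, Tgfb2, Bmp2 and Bmp4, the receptors Tgfbr1, Tgfbr2 and Bmpr1a, the inhibitory SMADs Smad6 and Smad7, and the target Id1. They were picked by symbol out of 21154 genes that could be named on a mouse microarray, with earlier results of these data known. A probe was assigned to a gene when the transcript it was designed for maps to that gene's symbol in RefSeq. This gave 14 of the 55681 probes that were not controls. Tgfb2, Tgfbr1, Tgfbr2 and Bmp4 have 2 probes each and the other 6 genes have 1.

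The cells came from C57BL/6 mice. Total marrow of JAK2V617F;Ezh2flox/flox;Cre-ERT2 donors was placed in lethally irradiated wild-type hosts marked by CD45.1, and the Ezh2 gene was then deleted, which gives the genotype JAK2V617F/Ezh2Δ/Δ. JAK2V617F is an activating kinase mutation that drives myeloproliferative neoplasms, and Ezh2 encodes the histone methyltransferase of Polycomb repressive complex 2. All 4 groups carry both lesions, so no group shows either one alone. For 2 weeks the hosts then received DMSO alone or JQ1, which blocks the bromodomains of the BET family of chromatin readers. At the end of that course 2 marrow populations were sorted: LSK, defined by c-Kit and Sca-1 on cells that lack lineage markers and rich in stem cells, and MEP, the progenitors of megakaryocytes and red cells. Each population under each treatment has 1 array. The ages of the mice, the number pooled for an array, the promoters behind the transgenes and the agent that induced the deletion are not given in the sources used here. Host cells that survived irradiation are not separated from donor cells by anything the labels state.

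TGF-beta and BMP ligands bind pairs of type I and type II serine/threonine kinase receptors, which phosphorylate receptor-regulated SMADs. These join Smad4, enter the nucleus and regulate targets such as the Id genes, while Smad6 and Smad7 are themselves induced and shut the receptors off. In marrow, TGF-beta1 is known for holding stem cells in quiescence. Made in excess by megakaryocytes and monocytes, it is known for driving fibrosis in myeloproliferative disease. BMP4 is known for supporting erythroid progenitors under stress, a role not limited to marrow.

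Between 45.2% and 53.2% of probes were well above background on an array, and no spot was saturated. Of the MEP markers all 11 measured were higher by 2-fold in MEP in both treatments, but the LSK markers did not all follow their label. Of 12 measured under DMSO 3 were lower in MEP by 2-fold and 1 was higher (Slamf1, at 2.35), and of 10 under JQ1 6 were lower and 1 was higher (Slamf1, at 1.18). Ly6a, which encodes Sca-1, by which LSK are sorted, read 4.49 and 4.28 log2 units relative to the 75th percentile on the DMSO and JQ1 LSK arrays, against -0.32 and 0.22 on the MEP arrays. The erythroid regulator Klf1 read -1.61 and -1.76 in LSK against 1.97 and 3.05 in MEP. The DMSO MEP array stood apart, though by little in correlation. It correlated at 0.973 to 0.976 with each other array over 23013 probes, against 0.991 between the LSK arrays. That LSK pair is of 1 cell type. Across cell types, JQ1 MEP was only slightly closer to the LSK arrays, reaching 0.982 (JQ1) and 0.979 (DMSO). The MEP pair, at 0.976, lay below both of these values. A list of 14 immediate early genes, taken as possible markers of handling, summed to 451 on DMSO MEP (in units of each array's 75th percentile signal). The sums were 155, 127 and 144 on DMSO LSK, JQ1 LSK and JQ1 MEP. No second array of that group exists here, and results that use it cannot be given without it. With 1 array a group no difference below has a replicate check or a test. Fewer cells of a type and less RNA per cell cannot be told apart in such bulk samples.

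A difference between arrays is given in log2 units relative to the median gene of that comparison, since the median gene itself differed. It lay at 0.06 for JQ1 against DMSO in LSK and at 0.34 in MEP, and for MEP against LSK it lay at -0.22 under DMSO and 0.07 with the drug. A gene is called at 2-fold, a log2 difference of 1, and counts as measured when its probe was well above background on both arrays. The number after a log2 difference as "error" is what the scanner software gives for the spots. As a wider measure, different probes of 1 gene differed by an SD of 0.26 and 0.39 log2 in the JQ1 comparisons in LSK and MEP, and by 0.37 and 0.27 in the cell type comparisons under DMSO and JQ1. For dim probes, those at least 1 log2 unit below the 75th percentile, these SDs were 0.40, 0.48, 0.49 and 0.49. None of these errors covers differences between mice, sorts or labelling reactions. Where 4 values are given in array order, they run from DMSO LSK over JQ1 LSK and DMSO MEP to JQ1 MEP. Signals are processed fluorescence intensities before scaling, and since probes differ in how brightly they bind, no gene's level is set against another's.

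**Figure D1:**
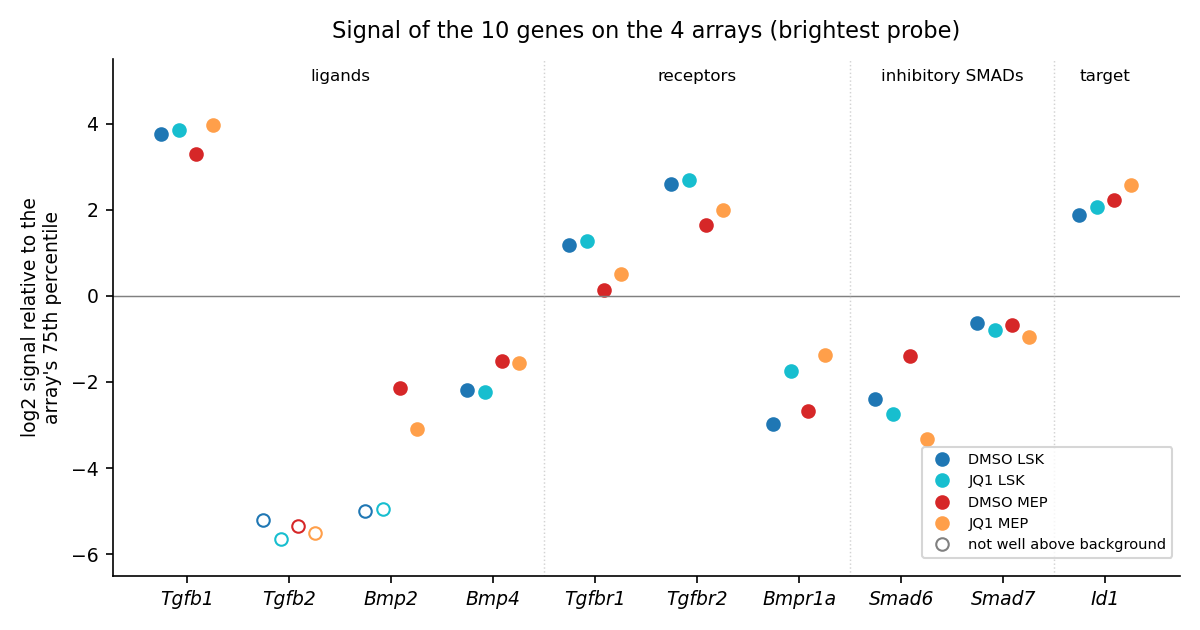
Log2 signal relative to the array's 75th percentile (y axis) for the brightest probe of each of the 10 genes (x axis, grouped by role), with 1 point per array in the colours of the legend. Open points were not well above background. The points of Tgfbr1 and Tgfbr2 lie higher in LSK than in MEP, Bmpr1a lies higher on both JQ1 arrays, and Smad6 spreads from -3.32 on JQ1 MEP to -1.40 on DMSO MEP.

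Of the 10 genes, 8 were well above background on all 4 arrays. Bmp2 was so only on the MEP arrays, and Tgfb2 on none. Within LSK, 1 of 8 measured genes was higher under JQ1 (Bmpr1a) and 0 were lower, and their median difference was 0.02. Of all 12328 genes measured in that comparison 0.543% were higher and 3.22% lower. Within MEP, 0 of 9 were higher and 2 were lower (Smad6 and Bmp2), with a median of 0.01, beside 0.98% and 5.77% of 12549 genes. For MEP against LSK under DMSO, 1 of 8 was higher (Smad6) and 0 were lower, with a median of 0.34, beside 5.68% and 4.32% of 12407 genes. For MEP against LSK under JQ1, 0 of 8 were higher and 0 lower, with a median of -0.09, beside 3.94% and 4.01% of 12262 genes. With 8 or 9 genes measured, counts of 0 to 2 are too small to be set apart from those shares.

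The all-gene counts behind those shares moved with scaling. In LSK, 67 higher and 397 lower genes became 153 and 256 when arrays were scaled to the median probe without centring, and 849 and 135 when scaled to the spike-in probes. In MEP, 123 and 724 became 374 and 366 with the 75th percentile and no centring, 3039 and 172 with the median probe, 35 and 2210 with the spike-ins and 295 and 480 under quantile normalization. Under DMSO, 705 genes higher and 536 lower in MEP became 481 and 907 without centring, 404 and 1172 with the median probe and 5302 and 75 with the spike-ins. Under JQ1, 483 and 492 became 656 and 327 with the median probe and 340 and 848 with the spike-ins. The median gene lay at 0.26, 0.75, -0.32 and 0.19 with the median probe and at 0.63, -0.53, 0.91 and -0.24 with the spike-ins, in the order of the comparisons above.

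Tgfb1 encodes TGF-beta1, the main ligand of the TGF-beta branch in blood cells. Its probe has 10 spots on each array, so it is the member with the best measured signal. The signal was 2867 and 3519 on the DMSO and JQ1 arrays of LSK and 3188 and 3631 on those of MEP. Relative to the 75th percentile these were 3.77, 3.85, 3.29 and 3.96 log2 units, the lowest being DMSO MEP. The spots of an array agreed closely, with an SD of 0.019 to 0.034 log2 and, on DMSO LSK, a range of 2779 to 2969. Relative to the median gene Tgfb1 differed by 0.01 (error 0.20) under JQ1 in LSK and by 0.34 (error 0.20) in MEP. Between the cell types it differed by -0.27 under DMSO and 0.04 under JQ1. All 4 differences were under 2-fold, and the spots' agreement bears only on the array, not on the mice.

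Tgfb2 was not detected. Its brighter probe read 5.67, 4.87, 8.03 and 5.14 in array order, and its other probe between 3.82 and 4.57. The dimmest probe that counted as detected read 17.2 to 20.1, depending on the array, and every Tgfb2 reading lies below that. No difference is given for this gene.

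Bmp2, a BMP ligand, read 6.56 on DMSO LSK and 7.92 on JQ1 LSK, both not well above background, against 74.7 on DMSO MEP and 27.4 on JQ1 MEP. The MEP arrays are thus the ones with signal, and DMSO MEP is the highest. Against the LSK floor, Bmp2 was at least 2.77-fold higher in MEP under DMSO and at least 1.56-fold higher under JQ1. Among the genes above background on only 1 array, 17.3% (under DMSO) and 22.9% (under JQ1) were higher by a bound of 2-fold or more. On the dim array such a bound uses the probe's own reading or the lowest detected signal, whichever is higher. Within MEP, Bmp2 was 2.46-fold lower under JQ1 (log2 -1.30, error 0.33), and 3.23% of genes lay as low or lower. It was under 2-fold in 4 of 9 other ways of processing, with a range of -1.83 to -0.36.

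Bmp4 read 46.0, 51.8, 114 and 78.8 in array order. Both MEP readings lie above both LSK readings. Relative to the median gene it was 0.89 (error 0.27) higher in MEP under DMSO and 0.61 (error 0.26) higher under JQ1, both under 2-fold, and it kept that sign in all 9 other ways of processing. Under JQ1 it differed by -0.11 in LSK and -0.38 in MEP. Its second probe read 4.51 to 5.55 and was not well above background on any array, so the detected values rest on 1 probe and 1 spot.

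Tgfbr1 and Tgfbr2 encode the type I and type II receptors of TGF-beta. The brighter Tgfbr1 probe read 479 and 595 on the DMSO and JQ1 arrays of LSK and 361 and 332 on those of MEP. The brighter Tgfbr2 probe read 1262, 1563, 1016 and 929 in the same order. Both receptors thus had their higher readings in LSK. Under JQ1 they lay at the median gene within the error, with Tgfbr1 at 0.03 in LSK and 0.03 in MEP and Tgfbr2 at 0.03 and 0.02 (errors 0.20 to 0.21).

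MEP against LSK, Tgfbr1 was at -0.83 under DMSO and -0.84 under JQ1, and Tgfbr2 at -0.73 and -0.75. All of these are under 2-fold. With spike-in scaling the values under DMSO became 0.08 and 0.18, so that direction depends on the scaling, whereas under JQ1 both genes stayed lower in MEP in every way of processing tried. The dimmer probes read differently. The second Tgfbr1 probe gave -0.45 under DMSO and -0.47 under JQ1, the same direction at a smaller size. The second Tgfbr2 probe gave 0.23 and -0.16, so the lower Tgfbr2 reading in MEP was not seen with it under DMSO.

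Bmpr1a encodes a type I receptor of BMP2 and BMP4. Its probe read 26.6 and 72.6 on the DMSO and JQ1 arrays of LSK and 51.4 and 89.4 on those of MEP, and within each cell type the JQ1 array was the higher one. It was 2.25-fold higher under JQ1 in LSK (log2 1.17, error 0.33), where 44 of 12328 genes (0.357%) lay as high. In MEP it was 1.93-fold higher (log2 0.95, error 0.24), just under the 2-fold line, where 1.13% of genes lay as high. The DMSO LSK reading of 26.6 is close to the lowest detected signal of that array, 20.1. The value was under 2-fold with normexp background correction (0.32) in LSK, and over all 9 other ways of processing ranged from 0.32 to 1.80 in LSK and from 0.42 to 1.70 in MEP. Between the cell types Bmpr1a differed by 0.53 under DMSO and 0.30 under JQ1.

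**Figure D2:**
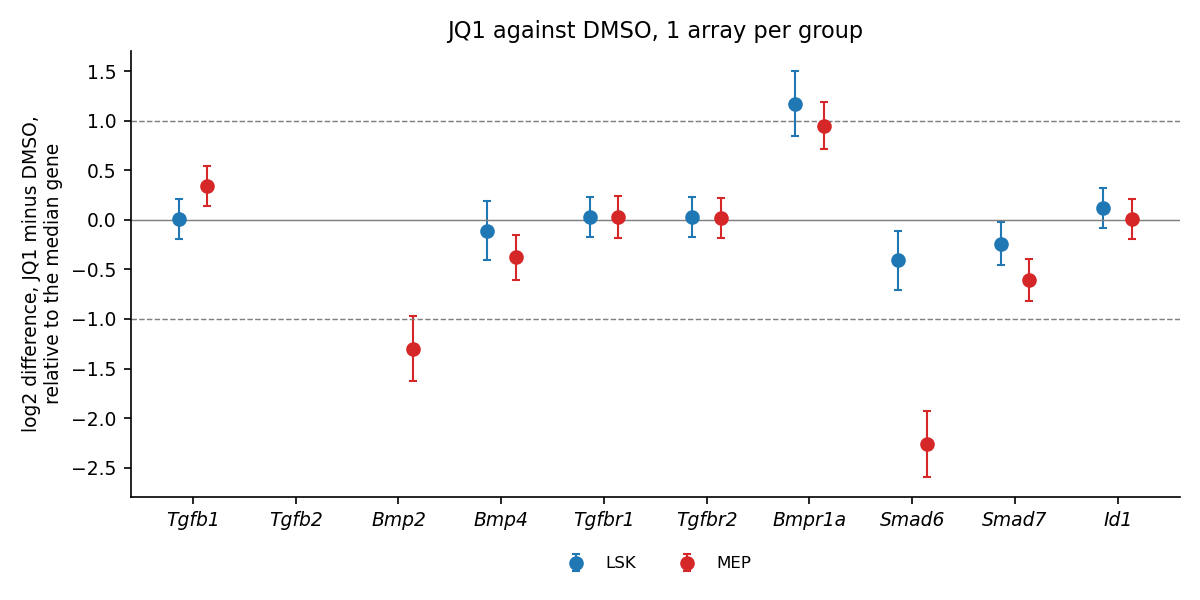
Log2 difference of JQ1 against DMSO relative to the median gene (y axis) for each gene (x axis), in LSK and in MEP; bars are the scanner software's error for 1 array against 1 array, and dashed lines mark 2-fold. Bmpr1a lies at 1.17 and 0.95, Smad6 at -0.41 and -2.26, and Tgfbr1, Tgfbr2 and Id1 lie near 0 in both cell types.

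Smad6 is the inhibitory SMAD that acts mainly on BMP receptors. Its signal was 39.8 and 36.4 on the DMSO and JQ1 arrays of LSK and 124 and 23.4 on those of MEP. DMSO MEP is the array that stands out, and the JQ1 MEP reading is near that array's lowest detected signal of 18.6. In MEP Smad6 was 4.78-fold lower under JQ1 (log2 -2.26, error 0.33), and 48 of 12549 genes (0.383%) lay as low or lower. In LSK the difference was -0.41 (error 0.30), with 12.1% of genes as low or lower, and it turned to 0.22 with spike-in scaling.

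Smad6 was 2.33-fold higher in MEP than in LSK under DMSO (log2 1.22, error 0.27) and -0.64 (error 0.37) under JQ1, so the order of the cell types was opposite in the 2 treatments. Subtracting its JQ1 difference in LSK from that in MEP gave -1.85, and 0.999% of the 12016 genes measured on all arrays had a value as low. That difference of differences uses all 4 arrays and was not tested. It ranged from -3.01 with spike-in scaling to -0.58 with normexp correction. In MEP the JQ1 value of Smad6 stayed past 2-fold except with normexp correction (-0.81), in a range of -2.78 to -0.81.

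The immediate early genes, listed as possible markers of handling, also read lower under JQ1 in MEP. Of the 14 immediate early genes 13 were measured in MEP, and 12 of them were lower by 2-fold or more under JQ1, with a median of -1.69. All 14 were well above background on DMSO MEP and 13 on each of the other arrays. In LSK 0 of 13 passed 2-fold in either direction (median -0.21). Their part in the Smad6 and Bmp2 readings on DMSO MEP was not tested, and neither was any difference in handling between the arrays. The 3 genes whose readings over the 4 arrays lay closest to those of Smad6 were 3300002I08Rik (distance 0.19), Gdap10 (0.24) and Esr2 (0.26), where the distance is Euclidean in log2 units after each gene is centred on its own mean. Their JQ1 differences in MEP were -2.01, -2.31 and -2.07, and this likeness to Smad6 follows from how they were picked. For Bmpr1a the 3 closest genes were the ubiquitin ligase gene Nedd4 (0.35), Zfp105 (0.42) and the kinase gene Fer (0.42). Picked in the same way, they had JQ1 differences of 0.74, 0.86 and 0.78 in LSK and 0.71, 0.58 and 0.51 in MEP.

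Smad7, which inhibits both branches, read 137, 141, 203 and 120 in array order. Here too the highest signal was on DMSO MEP, but relative to the 75th percentile DMSO LSK (-0.62) and DMSO MEP (-0.68) were alike, and the JQ1 readings were -0.80 in LSK and -0.96 in MEP. It differed under JQ1 by -0.24 (error 0.22) in LSK and -0.61 (error 0.21) in MEP, and both signs turned in at least 1 other scaling, to 0.40 and 0.14 at most. MEP against LSK it differed by 0.16 under DMSO and -0.23 under JQ1. None of these reached 2-fold.

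Id1 encodes an inhibitor of basic helix-loop-helix factors and is a direct BMP target in many cells. It read 771 and 1017 on the DMSO and JQ1 arrays of LSK and 1532 and 1388 on those of MEP, with both MEP readings above both LSK readings. It was 0.57 higher in MEP under DMSO and 0.45 higher under JQ1 (errors 0.20), under 2-fold but with the same sign in all 10 other ways of processing. Under JQ1 it stayed at the median gene, with 0.12 in LSK and 0.01 in MEP.

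**Figure D3:**
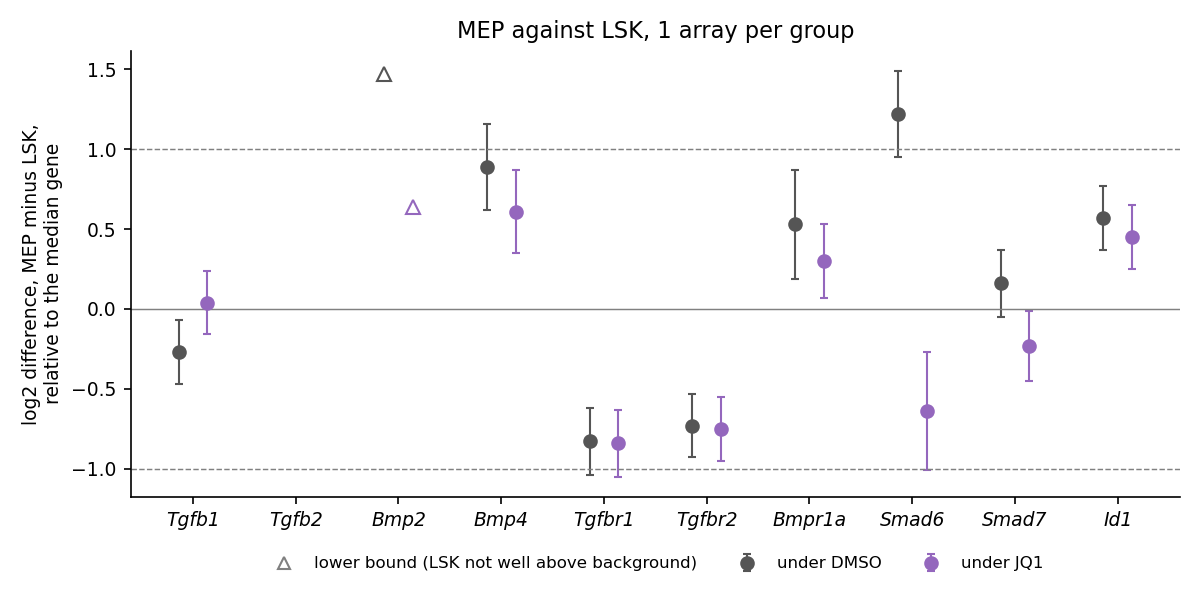
Log2 difference of MEP against LSK relative to the median gene (y axis) for each gene (x axis), under DMSO and under JQ1; bars are the scanner software's error, triangles are lower bounds where LSK was not well above background, and dashed lines mark 2-fold. Tgfbr1 and Tgfbr2 lie between -0.84 and -0.73, and Smad6 lies at 1.22 under DMSO and -0.64 under JQ1.

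Promoter sequence is shown for Smad6 and Bmpr1a, the members with the largest JQ1 difference in MEP and in LSK, to show what SMAD-type letters lie at their start sites. RefSeq windows (GRCm38.p6) of 300 bases, from 250 before to 50 after the annotated start, were searched for 7 of the 10 genes, and those of 2 genes are printed here 5′ to 3′ on the gene's strand, with motif matches in capitals. Smad6 lies at chr9:64022010-64022309 on the minus strand and Bmpr1a at chr14:34502497-34502796 on the minus strand.
Smad6: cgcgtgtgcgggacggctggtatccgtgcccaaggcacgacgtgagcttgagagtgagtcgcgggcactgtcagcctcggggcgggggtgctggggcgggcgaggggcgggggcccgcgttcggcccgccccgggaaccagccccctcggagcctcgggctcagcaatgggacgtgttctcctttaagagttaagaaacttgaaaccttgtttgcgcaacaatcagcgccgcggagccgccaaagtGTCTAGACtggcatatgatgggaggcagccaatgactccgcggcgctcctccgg
Bmpr1a: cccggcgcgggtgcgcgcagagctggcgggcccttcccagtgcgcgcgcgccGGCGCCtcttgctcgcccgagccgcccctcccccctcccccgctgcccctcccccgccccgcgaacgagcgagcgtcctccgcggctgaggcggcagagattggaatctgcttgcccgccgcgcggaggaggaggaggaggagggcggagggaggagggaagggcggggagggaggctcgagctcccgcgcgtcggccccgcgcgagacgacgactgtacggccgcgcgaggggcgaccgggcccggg
The letters searched on both strands were GTCTAGAC (a palindromic SMAD-binding element), GGCGCC (a site described for BMP-activated SMADs), CAGACA (the CAGA box) and TGACTCA (the AP-1 site). The Smad6 window holds 1 GTCTAGAC, which 0.213% of 32851 RefSeq promoter windows hold, and none of the other motifs. The Bmpr1a window holds 1 GGCGCC, which 11.9% of windows hold, and none of the others. CAGACA stands in 21.0% and TGACTCA in 5.2% of windows. Of the other genes searched, Tgfbr1 has a window for each of 2 starts, holding 1 GGCGCC and 1 CAGACA, Tgfb2 holds 1 CAGACA, and the windows of Tgfb1, Tgfbr2 and Bmp4 hold none of the motifs. Both windows are rich in G and C, at 66.3% for Smad6 and 79.3% for Bmpr1a against a median of 52.7%, with 31 and 48 CpG dinucleotides against a median of 7. These matches describe the letters only, and no binding was measured.

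The members were set beside the rest of the pathway through 95 other genes in 5 lists by role. Of these 47 were well above background on all arrays and 34 on none. Under JQ1 in LSK, 0 of 47 measured genes were higher and 5 lower by 2-fold, with a median of -0.10. In MEP, 1 of 55 was higher and 6 were lower, with a median of -0.13. The lower shares are to be read against the 3.22% and 5.77% of all genes given above.

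Among the targets in LSK, all 7 measured genes lay below the median gene, with a median of -0.58, and 2 were lower by 2-fold. The differences of Tgfbi (-0.04), Cdkn1c (-0.14) and Cdkn1a (-0.15) lie inside the SD of 0.26 between probes. With spike-in scaling the 7 values ran from -1.3 for Id3 to 0.59 for Tgfbi, so their shared direction depends on the scaling. The member Id1 is not part of this list. The Id family did not move as 1 group. Relative to the 75th percentile Id3 read 0.69 on DMSO LSK and -1.19 on JQ1 LSK, and -0.51 on DMSO MEP and -1.81 on JQ1 MEP, the JQ1 array being the lower of each pair. It was 3.83-fold lower in LSK (log2 -1.94) and 3.1-fold lower in MEP (log2 -1.63). The LSK value stayed past 2-fold in all 9 other ways of processing, and the MEP value in 8, with -0.88 when scaled to the median probe. Id2 was 2.26-fold lower in LSK (log2 -1.18) and at -0.51 in MEP, and its LSK value was under 2-fold with scaling to the median probe or to spike-ins. Id1, by contrast, differed by 0.12 and 0.01 as given above.

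In MEP the targets had 1 of 10 higher and 2 lower, with a median of -0.52. Besides Id3, Junb was 2.42-fold lower (log2 -1.28), past 2-fold in 7 of 9 other ways of processing. Junb is itself on the list of immediate early genes. The cell cycle inhibitor gene Cdkn2b was 2.04-fold higher (log2 1.03), at 102 on DMSO MEP and 187 on JQ1 MEP, and was not well above background in LSK. It was under 2-fold in 4 of 9 other ways of processing.

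Among the receptors, 1 of 7 was lower in LSK and 0 were higher, with a median of 0.15, and 0 of 8 were called in MEP. The one called was Acvrl1, the endothelial type I receptor known as ALK1, which read 399 on DMSO LSK and 144 on JQ1 LSK against 311 and 233 on the MEP arrays. It was 3.36-fold lower in LSK (log2 -1.75), past 2-fold in all 9 other ways of processing, and at -0.26 in MEP. Eng, the co-receptor that pairs with ALK1 in endothelium, was at -0.09 and -0.06. Acvr1b, an activin receptor, was above background on JQ1 LSK (62.6) and not on DMSO LSK (18.0), so it was at least 2.56-fold higher under JQ1. In MEP it was above background on DMSO MEP (35.8) and not on JQ1 MEP (18.3), so it was at least 1.73-fold lower. In LSK and MEP, Bmpr2 was at 0.43 and 0.03, Acvr1 at 0.15 and -0.13 and the betaglycan gene Tgfbr3 at 0.20 and 0.12. Over all measured receptors the values in MEP ran from -0.76 to 0.65.

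Of the receptor-regulated SMADs and Smad4, 5 of 6 were measured in each comparison and none reached 2-fold under JQ1. In LSK the values were 0.32 for Smad1, -0.04 for Smad2, 0.18 for Smad3, 0.13 for Smad4 and 0.29 for Smad5. In MEP they were -0.03, 0.06, 0.32, 0.14 and 0.11. With the brighter probes these transducers lay within 0.32 of the median gene in both cell types. Their other probes, where present, ranged down to -0.52 (Smad3 in LSK) and -0.57 (Smad1 in MEP).

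The ligands had 0 of 12 called in LSK (median -0.30) and 3 of 13 lower in MEP (median -0.25). The 3 were Bmp8a (106, 133, 326 and 97.1 in array order), at -1.60, Lefty2 (97.7, 75.8, 174 and 56.2), at -1.48, and Gdf7 (36.1, 50.7, 77.1 and 27.2), at -1.36. All 3 had their highest reading on DMSO MEP, as Smad6 and Bmp2 did. These signals are unscaled, and the 75th percentile was 327 on DMSO MEP against 210 to 245 on the other arrays. Relative to the 75th percentile DMSO MEP was still highest, but by little for 2 of them. Lefty2 read -0.91 there against -1.10 on DMSO LSK, and Gdf7 -2.08 against -2.27 on JQ1 LSK. Scaled to the median probe, each of the 3 JQ1 differences in MEP was under 2-fold. So was Lefty2 with normexp correction (-0.91), and Gdf7 with quantile normalization (-0.86), normexp correction (-0.46) and the mean over its probes (-0.49).

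Among the inhibitors and latency proteins, 2 of 16 were lower in LSK (median -0.10) and 1 of 19 in MEP (median -0.15). This list holds intracellular inhibitors of the pathway as well as extracellular ones. Ltbp2, a latent TGF-beta binding protein, read 80.7 on DMSO LSK and 21.0 on JQ1 LSK and was 4.67-fold lower (log2 -2.22), with -0.87 under normexp correction. Lrrc32, which encodes GARP, the cell surface anchor of latent TGF-beta, was 2.09-fold lower (log2 -1.06) and under 2-fold in 5 of 9 other ways of processing. The JQ1 LSK readings of Ltbp2 (21.0) and Lrrc32 (22.5) are near that array's lowest detected signal of 17.5. Thbs1, which encodes the TGF-beta activator thrombospondin-1, read 55.0 on DMSO LSK and was not above background on JQ1 LSK, a difference of at least 3.81-fold. In MEP the BMP antagonist Chrd was 2.64-fold lower (log2 -1.40), from 123 to 42.2, and past 2-fold in 6 of 9 other ways of processing.

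**Figure D4:**
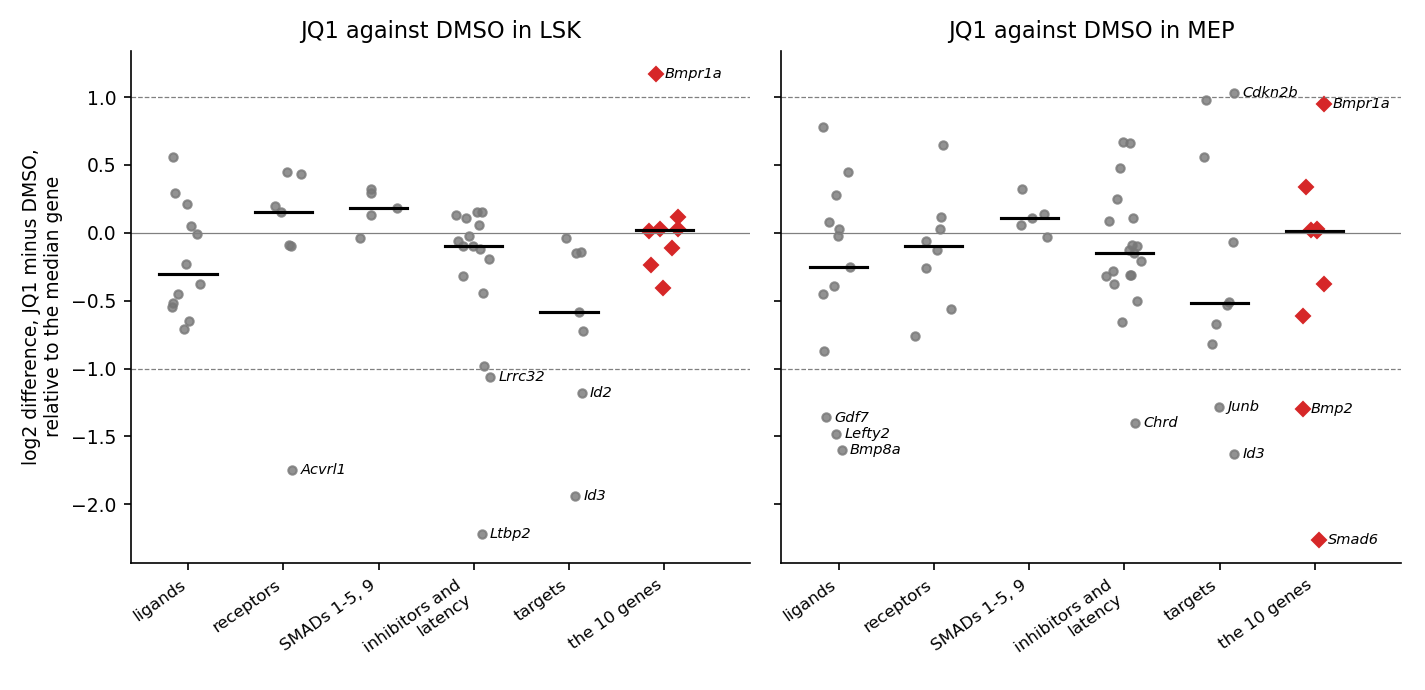
Log2 difference of JQ1 against DMSO relative to the median gene (y axis) for measured genes of the 5 pathway lists and for the 10 genes described here (x axis), in LSK (left) and MEP (right); grey points are single genes, red diamonds the members, black lines medians, and dashed lines mark 2-fold. In LSK the targets have a median of -0.58, and in MEP Smad6 lies lowest of all points at -2.26.

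Markers of other cells moved with JQ1 as well. Of 12 B-lymphoid markers 11 were measured, and 9 were lower in LSK and 8 in MEP. The 12 summed to 269 and 58.0 on the DMSO and JQ1 arrays of LSK and 88.7 and 35.6 on those of MEP, and 11 of 12 were well above background on each array. The 13 stromal and endothelial markers summed to 50.5, 38.5, 24.5 and 36.9, with 7 or 8 of 13 above background. Under JQ1, 0 of 7 measured passed 2-fold in LSK, and in MEP 0 of 7 were higher and 2 lower. The 12 megakaryocyte markers summed to 29.4, 25.7, 131 and 128 and were higher by 2-fold in MEP for 8 of 12 under DMSO and 8 of 11 under JQ1. Within LSK, 3 of 11 measured were lower under JQ1 and 0 higher (median -0.28), beside 3.22% of all genes lower. Ppbp was above background only on DMSO LSK of that pair and was at least 2.27-fold lower. Within MEP, 1 of 12 was higher under JQ1 and 0 were lower (median 0.05). The 13 granulocyte and monocyte markers summed to 1860, 1150, 1280 and 2240. Under JQ1 they did not move as 1 group. In LSK 2 of 11 measured were higher and 4 lower, and in MEP 1 of 13 was higher and 2 lower. The other 2 in LSK, Ltf and Ngp, were above background on JQ1 LSK and not on DMSO LSK. They were at least 3.86-fold and 3.46-fold higher under JQ1. Of all 1045 genes above background on 1 LSK array, 118 were higher by a bound of 2-fold or more. A sum is weighted toward the brightest genes of its list. The part of all these marker groups in the values of Bmpr1a, Id3, Acvrl1, Ltbp2, Lrrc32 and Thbs1 was not tested.

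Between the cell types, 5 of 48 measured pathway genes were higher and 3 lower in MEP under DMSO, with a median of -0.04, beside 5.68% and 4.32% of all genes. Under JQ1 5 of 48 were higher and 3 lower, with a median of -0.32, beside 3.94% and 4.01%. Among the genes above background on both arrays, the highest under DMSO were Thbs1 (2.32), Gdf3 (2.01) and Gdf15 (1.48), and the lowest Tgfb3 (-2.24), Bmp7 (-2.05) and Ltbp2 (-1.05). Under JQ1 the highest of these were Gdf3 (2.51), Lrrc32 (1.96) and Lefty1 (1.59), and the lowest Bmp7 (-1.94), Smad1 (-1.24) and Tgfbi (-1.06). Genes above background on only 1 array have bounds. Cdkn2b was at least 3.77-fold higher in MEP under DMSO. Under JQ1 Thbs1, which was not above background on JQ1 LSK, had the highest bound, at least 22.5-fold higher in MEP, and Cdkn2b the next, and both bounds exceed the fold of Gdf3 (5.68). Also under JQ1, Ltbp1 was at least 3.58-fold and Hey1 at least 3.34-fold higher in MEP. On the low side Acvr1b was at least 3.36-fold lower in MEP under JQ1, past the folds of Smad1 (2.36) and Tgfbi (2.09). Gdf3 and Bmp7 stayed past 2-fold in every way of processing tried in both treatments. Bmp7 read 616 and 577 on the LSK arrays against 199 and 151 on the MEP arrays. These 2 comparisons share no array. Mast cell markers moved with the cell types. The 7 summed to 362 and 312 on the DMSO and JQ1 arrays of LSK and to 40.8 and 49.1 on those of MEP, all 7 were well above background on every array, and 4 of 7 under DMSO and 5 of 7 under JQ1 were lower in MEP by 2-fold. Their part in the values of the cell type comparisons was not tested.

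The receptor-regulated SMADs and Smad4 were read in the same way. Under DMSO the values were -0.88 for Smad1, -0.06 for Smad2, -0.48 for Smad3, -0.41 for Smad4 and -0.77 for Smad5, and under JQ1 -1.24, 0.02, -0.35, -0.41 and -0.95. With spike-in scaling the 5 values under DMSO turned to 0.03, 0.85, 0.43, 0.50 and 0.15, so their direction there depends on the scaling. The other Smad1 probe read -0.13 under DMSO and -0.86 under JQ1. The other Smad5 probe read -0.07 and 0.09, so the lower values of that gene rest on the brighter probe. The co-receptors went different ways, with Tgfbr3 at 1.09 and 1.00 and Eng at -0.61 and -0.60 under DMSO and JQ1. Tgfbr3 was past 2-fold in 7 and 3 of 9 other ways of processing. Acvr1 was at -0.19 and -0.48 and Bmpr2 at -0.14 and -0.55.

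**Figure D5:**
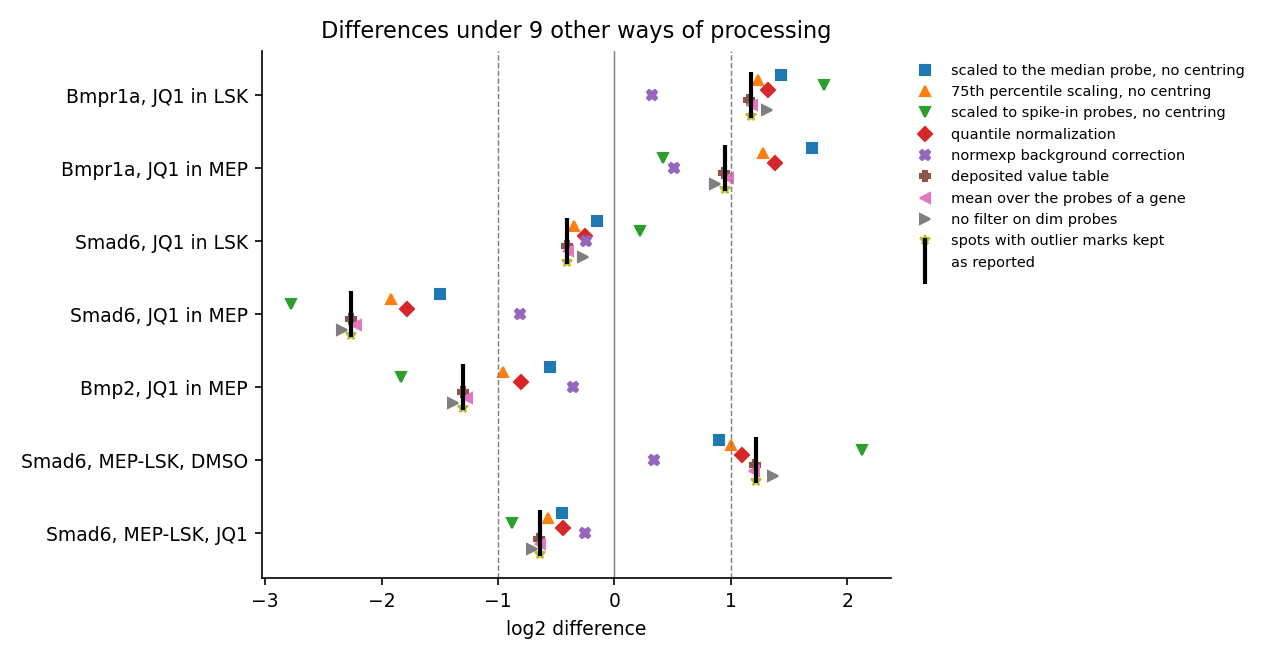
Log2 difference (x axis) of the member results that passed 2-fold, and of the same genes in the paired comparison, under 9 other ways of processing (symbols) and as reported (black bars); dashed lines mark 2-fold. Smad6 under JQ1 in MEP spans -2.78 to -0.81, Bmpr1a under JQ1 in LSK spans 0.32 to 1.80, and Bmp2 under JQ1 in MEP spans -1.83 to -0.36.

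Across the 4 comparisons the sign of a member's difference was kept in all other ways of processing for 2 of 8 genes under JQ1 in LSK (Bmpr1a and Id1) and for 3 of 9 in MEP (Bmp2, Bmpr1a and Smad6). It was kept for 3 of 8 between the cell types under DMSO (Bmp4, Id1 and Smad6) and for 7 of 8 under JQ1, Tgfb1 being the exception.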

How the data were processed

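RNA of 4 sorted cell samples (20 ng each, 1 array a group) was measured on one-colour Agilent arrays. Scans of design 028005 (mm9) were quantified in Agilent Feature Extraction 10.7.1.1, per the file headers, under GE1_107_Sep09. The deposited processed signal is a background-subtracted intensity, given with an error and with yes or no marks of other kinds. The authors' deposited value table holds a linear ratio to each array's 75th percentile and served as an alternative.

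For each of the 55681 probes on each array, log2 processed signals of spots without outlier marks were averaged, and the log2 of that array's 75th percentile was subtracted. A gene was taken as its brightest probe over the 4 arrays, and differences were centred on the median measured gene. Of the probes 28026 (50.3%) had a name through RefSeq (GRCm38.p6). Because the array was designed on mm9, no probe positions are given. Python 3.11.15, numpy 2.4.6, pandas 2.3.3, R 4.3.3 and limma 3.58.1 were used. The calculation was tested on simulated data. There is no count depth for arrays, and the 1 array a group limits precision.

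The 10 genes, the pathway and marker lists and the centring were chosen with earlier results of these data known. Named were all 10 genes, pathway genes past 2-fold under JQ1, the 3 highest and 3 lowest pathway genes between cell types, fixed receptors, SMADs and Id genes, the defining markers of LSK and MEP and the 3 nearest genes of members called under JQ1. Bmp2 has no nearest genes since it was not above background in LSK. The 10 alternatives changed the scaling, normalization, background correction, probe choice, dim-probe filter or outlier marks. Normexp correction (offset 50) used the median signal, since mean signals are not in the files used here.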

Additional observations from a re-analysis of the deposited data

Results flagged for a closer look

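Smad6 went opposite ways between the cell types in the 2 treatments. MEP against LSK, it was 1.22 higher on the log2 scale under DMSO and at -0.64 under JQ1, so that the second difference minus the first is -1.86. The median gene is taken separately in each comparison, which is why the value differs slightly from the -1.85 obtained from the JQ1 differences. With 1 array a group this difference was not tested. It rests on 1 spot an array and on a JQ1 MEP reading of 23.4 near that array's lowest detected signal of 18.6. It also rests on the DMSO MEP array, which stands apart by little in correlation and more in its immediate early genes.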

How the results depend on the processing

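Over 10 alternatives 384 values of single members were recomputed, of which 317 moved by less than the spread between probes of a gene and 67 by more. A change of sign was counted in these only for values past 2-fold, and 0 were found. Those values are few: Bmpr1a under JQ1 in LSK, Bmp2 under JQ1 in MEP, and Smad6. Among all measured members the sign turned in some alternative for 6 of 8 under JQ1 in LSK and 6 of 9 in MEP. Between the cell types it turned for 5 of 8 under DMSO and 1 of 8 under JQ1. Some alternatives could hardly move a value. The deposited value table lay within 1% of the scaled signal for 99.96% to 100% of probes above the 75th percentile. Keeping spots with outlier marks left Smad6, Bmp2 and Bmpr1a unchanged under JQ1. For a gene with 1 probe, the mean over probes changes only the centring. Such values are part of the 317 and of the counts of other ways of processing. Counts and medians of the 10 genes moved as follows. Under JQ1 in MEP (0 higher, 2 lower, median 0.01), scaling to the median probe gave 2 higher, 1 lower and a median of 0.76. The 75th percentile without centring and quantile normalization each gave 1 higher and 1 lower, spike-in scaling a median of -0.52 and 3 lower, and normexp correction 0 lower. Under JQ1 in LSK (1 higher, median 0.02), spike-in scaling gave a median of 0.65 and normexp correction 0 higher. Between cell types under DMSO (1 higher, 0 lower, median 0.34), scaling to the median probe gave 0 higher and 2 lower, no centring 1 lower, spike-in scaling 5 higher and a median of 1.26, normexp correction 0 higher and a median of -0.03, and no dim-probe filter 3 higher. Under JQ1 (0 and 0), spike-in scaling gave 1 lower and no dim-probe filter 1 higher. Keeping only genes above the median signal left 3 members, with 0 higher in LSK, 0 lower in MEP and 0 higher with a median of -0.23 between cell types under DMSO, since fewer genes were measured. Smad6 between cell types under DMSO was under 2-fold with the median probe (0.90) and normexp (0.34). Where a count moved for another reason the cause was not tested. No paired analysis was possible because each group has 1 array. Smad6, Bmp2 and Bmpr1a rest on 1 dim spot an array, so signal over background limits their precision.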
